A study of Homo sapiens with 16 samples.

Results

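Glycolysis splits glucose into pyruvate in the cytosol, and lactate dehydrogenase converts part of that pyruvate to lactate, which monocarboxylate transporters carry out of the cell. The remaining pyruvate enters mitochondria, where the pyruvate dehydrogenase complex commits it to the citric acid cycle unless a pyruvate dehydrogenase kinase phosphorylates and silences the complex. Tumor cells of the colon are known for high glucose uptake and lactate output, and most steps of the route are shared among isoforms encoded by separate genes.

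The 34 genes described here cover glucose entry (2 genes), the hexose phosphates (5), the phosphofructokinase step (7), the triose phase down to pyruvate (10), lactate (4) and the control of pyruvate dehydrogenase (6). They were taken from a list of symbols and matched to the Ensembl identifiers of the count files. All 34 had a match, and all 34 held at least 10 counts in all 4 libraries of at least 1 group, out of 54127 identifiers in the files, of which 26181 had a count. That minimum was met in all 4 groups by every gene except SLC2A3, which met it in 3 groups, and ENO2, which met it in 2.

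The libraries came from a pair of established lines of human colorectal cancer cells, HT55 and SW948, kept as adherent cultures with serum. The study's methods give incubators with 5% carbon dioxide and 5% oxygen for its cell lines. Each line received itraconazole at 5 µM or its solvent DMSO, and RNA was taken on day 6. Itraconazole is an antifungal azole that blocks a demethylation step of sterol synthesis. The design holds HT55 DMSO, HT55 itraconazole, SW948 DMSO and SW948 itraconazole, with 4 libraries in each and no genetic change in any group.

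Gene counts per library ran from 8269406 to 11110814. The study's methods call the replicates biological, the labels do not tie them to separate cultures, p-values measure the spread between these libraries, and no sequencing batch is given. No pair of replicates matched within counting noise, since the chi-square per degree of freedom between replicates ran from 1.43 upward. The library labelled HT55 itraconazole replicate 3 stood apart, with 12.3 to 40.4 against the other treated HT55 libraries, where those others gave 4.88 to 15.7 among themselves. The HT55 count of changed genes among the 34, and HT55 values of their larger changes, are therefore also given without it. HT55 values of genes outside the 34 are given only with it included. Of the 10 colorectal epithelial markers, all were tested in both lines, and 6 changed in HT55 (5 higher, 1 lower) and 10 in SW948 (6 higher, 4 lower), where 54.0% and 80.2% of all genes changed by the test given below. Levels are given in CPM, counts per 1000000 gene counts with library sizes scaled by the trimmed mean of M values (TMM). The keratin gene KRT8 averaged 1297 to 2903 CPM over the 4 groups, KRT19 381 to 989 CPM and KRT20 184 to 874 CPM. Of 9 markers of other cell types with an identifier, 4 were at 0 in every library of each group, CD3E and COL3A1 among them in all 4 groups. The 9 markers summed to between 224 and 333 counts in SW948 DMSO libraries and to between 928 and 1228 counts in SW948 itraconazole libraries, against 265 to 322 and 229 to 527 counts in HT55. The macrophage marker CD68, which also encodes a lysosomal protein of many cells, made up most of that sum at 20.5 and 110 CPM in the SW948 groups, and COL1A1 stood at 3.16 and 10.1 CPM. Their part in the results on SW948 was not tested. In bulk RNA, fewer cells of a kind and less RNA per cell cannot be told apart.

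Levels of different genes were compared per length. In CPM per kilobase of exon, GAPDH, which oxidises glyceraldehyde phosphate, had the highest mean level in each group, from 563 in SW948 DMSO to 1204 in HT55 DMSO. The glucose transporter gene SLC2A1 was the next highest in HT55 DMSO at 298 CPM per kilobase and stood at 41.2 in SW948 DMSO. Low mean levels per kilobase were 0.0449 for the transporter gene SLC2A3 in SW948 DMSO and 0.225 for the enolase gene ENO2 in HT55 itraconazole. The 34 genes together held 1.07% ± 0.0236 (SD, n = 4) of gene counts in HT55 DMSO and 1.04% ± 0.0164 in HT55 itraconazole. They held 0.780% ± 0.0321 in SW948 DMSO and 0.818% ± 0.0203 in SW948 itraconazole. GAPDH alone made up 27.7% of the counts of the set in HT55 DMSO and 20.4% in SW948 DMSO.

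**Figure D1:**
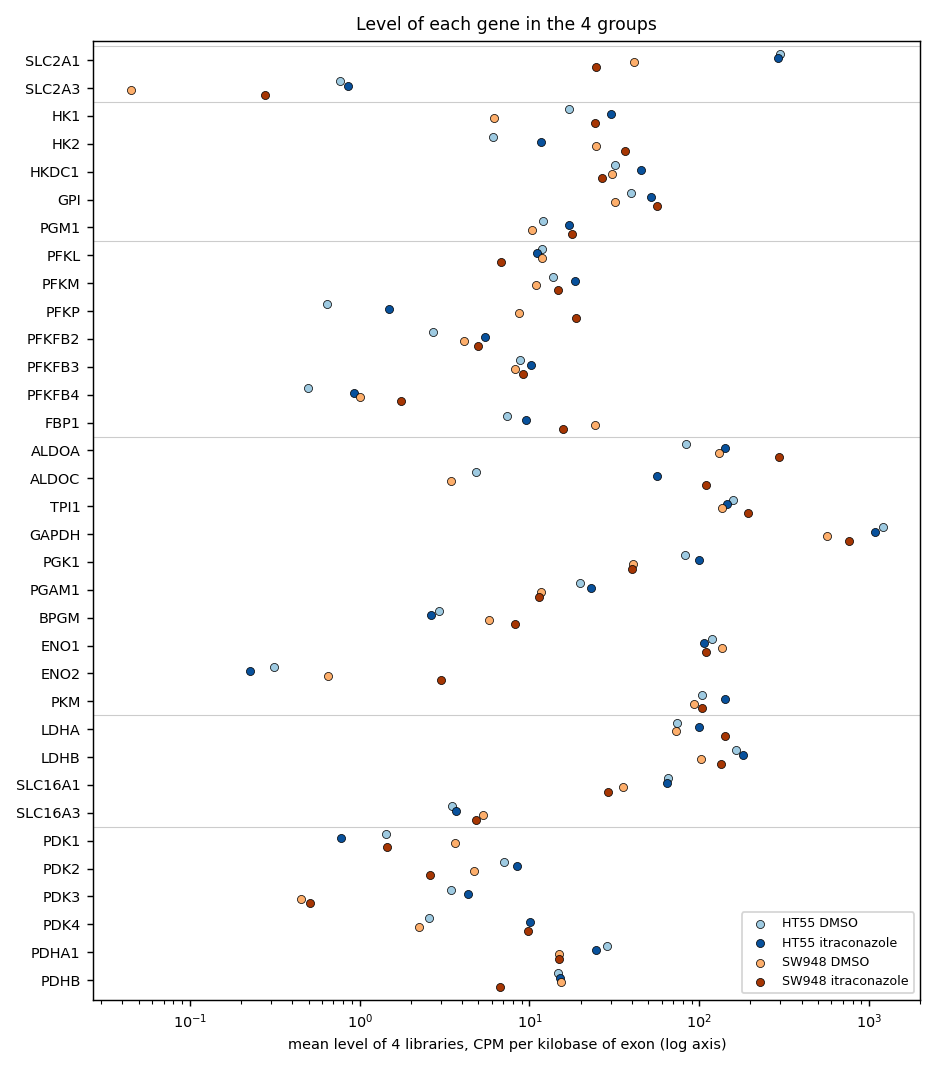
Mean level of each of the 34 genes in the 4 groups, in CPM per kilobase of exon on a log axis, with grey lines between the steps of the route (glucose entry at the top, pyruvate dehydrogenase at the bottom). GAPDH lies furthest right in every group, SLC2A1 lies at 298 in HT55 DMSO and 41.2 in SW948 DMSO, and ALDOC moves from 3.43 to 110 in SW948.

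The first comparison asked which of these genes changed with itraconazole in each line. In HT55, 21 of the 34 genes changed (61.8%), 19 higher and 2 lower, where 54.0% of 12133 genes tested changed, 27.5% higher and 26.5% lower. In SW948, 27 changed (79.4%), 18 higher and 9 lower, where 80.2% of 12505 genes changed, 38.9% higher and 41.3% lower. A gene was called changed at a Benjamini-Hochberg adjusted p under 0.05 in edgeR's quasi-likelihood test, adjusted over all genes of the fit. The share of the set that changed was thus near that of all genes. The median log2 fold change was 0.26 against -0.02 for all genes in HT55 and 0.30 against -0.02 in SW948. The 34 genes were chosen with earlier results of these data known, so this difference in medians describes them and tests nothing. The treated and control ranges of CPM did not overlap for 17 of the 34 genes in HT55 (49.4% of all genes) and for 26 in SW948 (74.7% of all genes). A change of at least 1 on the log2 scale was found for 4 genes in HT55 (9.63% of all genes) and 9 in SW948 (32.0% of all genes). Without HT55 itraconazole replicate 3, 22 genes changed in HT55, 20 higher and 2 lower.

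The balance of directions depended on the scaling of the libraries. Plain library totals, without TMM factors, moved the median of all genes to -0.18 in HT55 and -0.35 in SW948, and that of the set to 0.09 and -0.03. On that scale 13 genes of the set were higher and 6 lower in HT55, and 11 higher and 15 lower in SW948, so that the excess of higher calls in SW948 turned round. The median of the set stayed above that of all genes in both lines. Shares of all genes called on that scale are not given, so these counts are not set against all genes. Values below are on the TMM scale. For most genes of the set whose direction or call differed on plain totals, that value stands beside them. No value on plain totals is given for genes outside the set.

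Across the lines, 12 genes rose in both, namely HK1, HK2, GPI, PGM1, PFKM, PFKP, PFKFB2, PFKFB4, ALDOA, ALDOC, LDHA and PDK4. PDK1 fell in both. Genes called in both lines in the same direction were thus 13 of 34, where 39.4% of the 11448 genes tested in both lines were. HKDC1 and FBP1 rose in HT55 but fell in SW948, where 6.66% of all genes tested in both lines went opposite ways. The remaining 19 genes changed in 1 line or in neither.

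**Figure D2:**
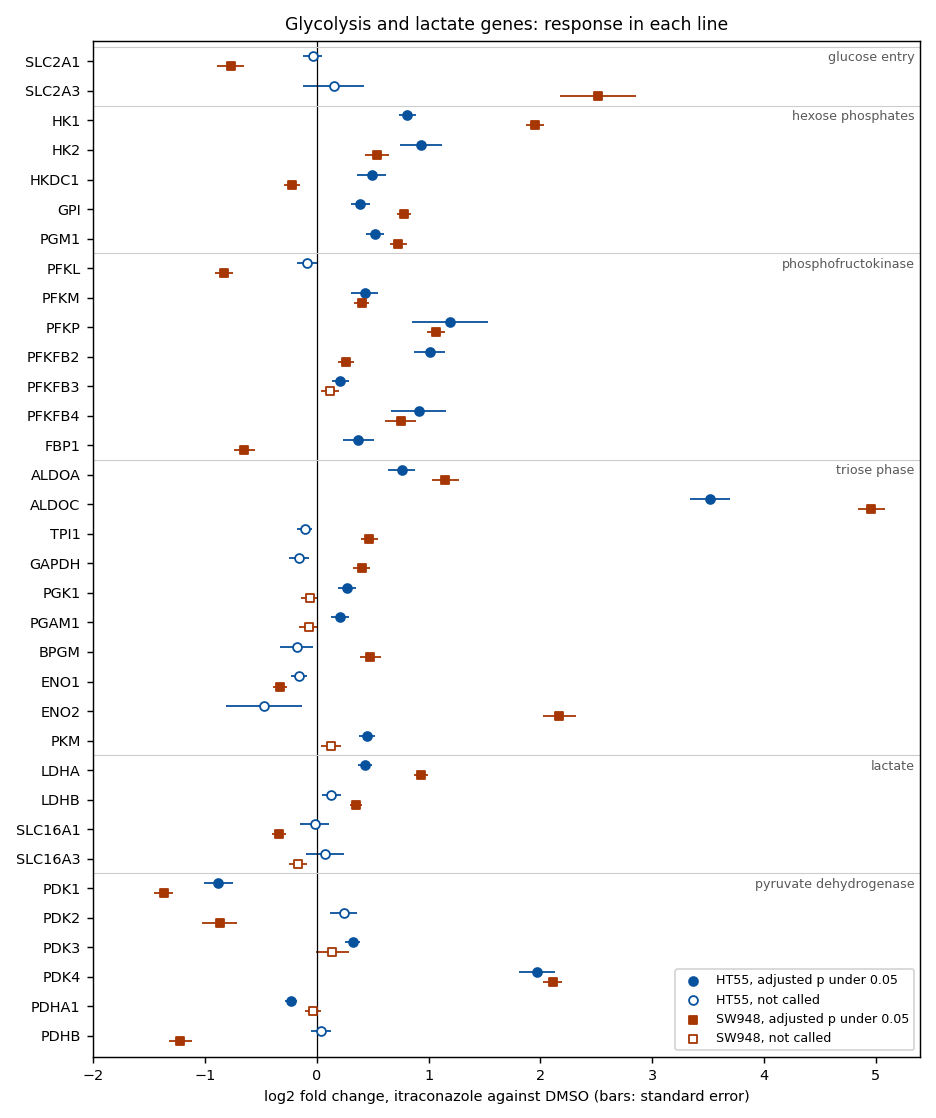
Log2 fold change of itraconazole against DMSO for each of the 34 genes in HT55 (blue circles) and SW948 (brown squares), with bars of 1 standard error and filled symbols for an adjusted p under 0.05. ALDOC lies furthest right in both lines, at 3.52 and 4.96, PDK4 lies near 2 in both, and PDK1 lies left of 0 in both.

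Facilitative transporters carry glucose into cells along its gradient, and both transporter genes of the set stood far higher in HT55 than in SW948. SLC2A1, which encodes the broadly expressed transporter GLUT1, averaged 1973 ± 39.8 CPM (SD, n = 4) in HT55 DMSO and 1927 ± 234 CPM in HT55 itraconazole, a log2 fold change of -0.04 ± 0.088 (SE, as for every log2 value below, where CPM and shares carry the SD) that did not pass the test (adjusted p = 0.731, edgeR). In SW948 it fell from 272 ± 13.3 to 164 ± 35.3 CPM, by 0.77 on the log2 scale (adjusted p = 3.85e-05, edgeR), with no overlap between the groups.

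SLC2A3 encodes the high-affinity transporter GLUT3. Its HT55 DMSO libraries held 6.49, 4.52, 5.19 and 5.92 CPM and the HT55 itraconazole libraries 7.35, 8.14, 3.04 and 6.33 CPM, in replicate order. The treated values lay on both sides of the controls, and the log2 fold change of 0.15 ± 0.27 did not pass the test (adjusted p = 0.655, edgeR), turned to -0.03 on plain totals and was 0.41 (adjusted p = 0.0504) without itraconazole replicate 3. In SW948 the DMSO libraries held 0.401, 0.189, 0.173 and 0.539 CPM, from 2 to 7 counts each, and the itraconazole libraries 2.30, 2.19, 1.40 and 2.15 CPM, from 11 to 23 counts each. All 4 treated SW948 libraries lay above all 4 controls, with a log2 fold change of 2.52 ± 0.34 (adjusted p = 1.09e-05, edgeR), yet SW948 stayed below HT55 in every library. Of the 50-base windows of its transcript, 27.5% have an exact copy elsewhere in GRCh37, so its counts are uncertain. SLC2A3 made up 0.110% of the length-scaled counts of SLC2A1 and SLC2A3 in SW948 DMSO and 1.17% in SW948 itraconazole, so that SLC2A1 supplied nearly all of their RNA in both.

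Hexokinases trap glucose as glucose phosphate. HK1, the hexokinase gene of most tissues, stood at 116, 112, 123 and 118 CPM in HT55 DMSO and at 188, 207, 200 and 233 CPM in HT55 itraconazole. In SW948 it stood at 40.3, 39.7, 48.1 and 41.1 CPM with DMSO and at 151, 168, 182 and 167 CPM with itraconazole. Every treated library was above every control of its line, and HK1 rose 1.76-fold in HT55 (log2 0.81 ± 0.074, adjusted p = 1.91e-05, or 0.84 without HT55 itraconazole replicate 3) and 3.86-fold in SW948 (log2 1.95 ± 0.080, adjusted p = 1.20e-10, both edgeR).

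HK2, the inducible hexokinase gene of many tumors, rose from 36.2 ± 2.16 to 69.3 ± 19.6 CPM in HT55 (log2 0.93 ± 0.19) and from 146 ± 9.69 to 217 ± 39.9 CPM in SW948 (log2 0.54 ± 0.11), with edgeR adjusted p of 0.00198 and 0.000409. Without HT55 itraconazole replicate 3 the HT55 value of HK2 was 1.13. The SW948 call was lost on plain totals, at a log2 fold change of 0.20 and an adjusted p of 0.0541. HK2 made up 11.1% of the length-scaled counts of the hexokinases in HT55 DMSO and 40.1% in SW948 DMSO. Its share was 13.2% and 41.5% with itraconazole, and the small shift in SW948 turned round with the canonical transcript as length, from 35.5% to 33.1%.

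HKDC1 encodes a hexokinase domain protein of gut epithelium. It was at 132, 134, 129 and 146 CPM in HT55 DMSO and at 218, 207, 135 and 204 CPM in HT55 itraconazole. The SW948 libraries held 127, 124, 133 and 134 CPM with DMSO and 106, 121, 125 and 102 CPM with itraconazole. The groups overlapped in both lines, in HT55 through itraconazole replicate 3 and in SW948 through replicate 3 at 125 CPM. HKDC1 rose by 0.49 ± 0.13 on the log2 scale in HT55 (adjusted p = 0.00855), or 0.64 without HT55 itraconazole replicate 3, and fell by 0.22 in SW948 (SE 0.073, adjusted p = 0.0133, both edgeR). The SW948 call was lost without SW948 itraconazole replicate 4 (log2 -0.16, adjusted p = 0.0606) and in a fit on all 16 libraries (log2 -0.19, adjusted p = 0.130).

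GPI, which isomerises glucose phosphate to fructose phosphate, rose from 421 to 552 CPM in HT55 (log2 0.39 ± 0.085, adjusted p = 0.00342) and from 341 to 599 CPM in SW948 (log2 0.78 ± 0.065, adjusted p = 7.65e-08). PGM1, a phosphoglucomutase gene that links the hexose phosphates to glycogen, rose from 48.8 to 70.3 CPM in HT55 (log2 0.52 ± 0.078) and from 42.6 to 72.0 CPM in SW948 (log2 0.73 ± 0.079). All 5 hexose phosphate genes rose in HT55, and 4 of 5 rose in SW948, with HKDC1 as the exception, where 27.5% and 38.9% of all genes rose.

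Phosphofructokinase commits hexose phosphate to glycolysis. PFKL, the liver-type subunit, fell in SW948 from 105 ± 8.58 to 60.7 ± 5.66 CPM (log2 -0.83 ± 0.081, adjusted p = 3.74e-07, edgeR). In HT55 it averaged 105 and 99.3 CPM, a difference that did not pass the test on the TMM scale (log2 -0.09, adjusted p = 0.457) and passed on plain totals (log2 -0.25, adjusted p = 0.0192). PFKM, the muscle-type subunit, rose in both lines by a similar log2 amount, 0.43 ± 0.12 in HT55 and 0.40 ± 0.063 in SW948, and both calls were lost on plain totals (log2 0.26 and 0.074).

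PFKP, the platelet-type subunit, was at 5.30, 4.22, 5.09 and 5.45 CPM in HT55 DMSO and at 12.9, 18.7, 4.75 and 9.93 CPM in HT55 itraconazole. In SW948, PFKP was at 65.8, 62.8, 76.1 and 65.3 CPM with DMSO and at 146, 148, 159 and 128 CPM with itraconazole. In HT55 3 treated libraries lay above the controls and replicate 3 lay within them, whereas the SW948 groups did not overlap. PFKP rose by 1.19 ± 0.34 on the log2 scale in HT55 (adjusted p = 0.0130), or 1.48 without HT55 itraconazole replicate 3, and by 1.07 ± 0.081 in SW948 (adjusted p = 2.69e-08, both edgeR). The SW948 DMSO level was 13.5-fold that of HT55 DMSO. PFKP made up 2.47% ± 0.287 (SD, n = 4) of the length-scaled phosphofructokinase counts in HT55 DMSO and 4.57% ± 1.69 in HT55 itraconazole, against 27.6% ± 1.21 and 46.4% ± 2.89 in SW948, where PFKL fell as PFKP rose.

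The PFKFB genes encode bifunctional enzymes that make and remove the bisphosphate activator of phosphofructokinase. PFKFB2 stood at 30.3, 27.1, 23.3 and 29.1 CPM in HT55 DMSO and at 56.2, 63.1, 40.5 and 62.1 CPM in HT55 itraconazole. In SW948 it stood at 38.9, 44.2, 41.6 and 41.7 CPM with DMSO and at 54.3, 48.2, 50.1 and 51.0 CPM with itraconazole. Neither line showed overlap, and PFKFB2 rose 2.01-fold in HT55 (log2 1.01 ± 0.14, adjusted p = 0.000231, or 1.15 without itraconazole replicate 3) and 1.20-fold in SW948 (log2 0.26 ± 0.071, adjusted p = 0.00372, both edgeR), the SW948 value turning to -0.07 on plain totals.

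PFKFB4 rose in both lines from low levels. It went from 3.03 to 5.65 CPM in HT55 (log2 0.91 ± 0.25, adjusted p = 0.00985, edgeR) and from 6.15 to 10.6 CPM in SW948 (log2 0.75 ± 0.14, adjusted p = 0.000144, edgeR). The HT55 groups overlapped, with itraconazole replicate 1 at 3.32 CPM against 2.49 to 3.67 CPM with DMSO, and the SW948 groups did not. PFKFB3 rose in HT55 by 0.21 ± 0.077 on the log2 scale (adjusted p = 0.0402, edgeR), a call that was lost without a filter on low counts (0.113), on plain totals (0.643) and in 5 of 8 fits that left out 1 library (DMSO replicate 2, 3 or 4 or itraconazole replicate 2 or 4, adjusted p = 0.0673 to 0.0973). In SW948 it averaged 50.4 and 56.2 CPM and did not pass the test (adjusted p = 0.175) except without itraconazole replicate 1 (log2 0.20, adjusted p = 0.0210), and on plain totals its log2 fold change turned to -0.21.

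FBP1, the fructose bisphosphatase gene that runs the phosphofructokinase step backwards in gluconeogenesis, was at 14.3, 14.5, 12.9 and 14.6 CPM in HT55 DMSO and at 16.6, 17.2, 23.4 and 15.4 CPM in HT55 itraconazole. With DMSO in SW948 it was at 42.4, 43.9, 53.3 and 45.3 CPM and with itraconazole at 33.5, 26.4, 28.3 and 31.7 CPM. The groups did not overlap in either line, with the treated libraries above the controls in HT55 and below them in SW948. FBP1 fell in SW948 by 0.65 on the log2 scale (SE 0.095, adjusted p = 2.05e-05, edgeR). The HT55 rise of 0.37 ± 0.14 was near the threshold (adjusted p = 0.0441, edgeR) and was lost without HT55 itraconazole replicate 3 (log2 0.23, adjusted p = 0.0644), on plain totals (0.274), and in each of 4 other fits that left out 1 HT55 DMSO library (log2 0.34 to 0.40, adjusted p = 0.0677 to 0.103). PCAT7 shares 14.8% of its exonic bases.

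Aldolase splits fructose bisphosphate into triose phosphates, and its gene ALDOC changed more than any other of the 34. The stretches of genome before the starts of ALDOC and ALDOA are shown because these isoform genes of the same enzyme differed widely in the size of their response. Both come from the RefSeq promoter table, were matched to GRCh37 and stop where the gene begins in GENCODE, 53 bases before the RefSeq start for ALDOC and 115 bases before it for ALDOA. ALDOC lies on the minus strand, at chr17:26903967-26904163, and ALDOA on the plus strand, at chr16:30075350-30075484. Capitals mark CACGTG (an E-box), ACGTG (a hypoxia response core, read as CACGT on the other strand and contained in that E-box) and TCACNCCAC (a sterol response element).
ALDOC: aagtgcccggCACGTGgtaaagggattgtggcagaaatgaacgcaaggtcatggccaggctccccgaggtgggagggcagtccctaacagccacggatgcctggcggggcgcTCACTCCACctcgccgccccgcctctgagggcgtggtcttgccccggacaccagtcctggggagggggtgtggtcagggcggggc
ALDOA: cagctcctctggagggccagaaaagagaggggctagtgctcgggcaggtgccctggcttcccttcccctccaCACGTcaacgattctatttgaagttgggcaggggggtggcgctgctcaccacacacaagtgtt

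Letters of the sterol element were found 138 bases before the RefSeq start of ALDOC, and an E-box 240 bases before it. Within 250 bases before the RefSeq start, on both strands, TCACNCCAC occurred in 1 of the 31 genes of the set that the table holds (ALDOC, with SLC2A3, PFKFB2 and SLC16A1 not in the table) and in 0.875% of 27305 promoters. CACGTG occurred in 4 of the 31 (ALDOC, GAPDH, LDHA and PDHB) and in 6.49% of all. ACGTG occurred in 11 of the 31, ALDOA and ALDOC included, and in 18.7% of all, and the related core GCGTG in 11 of the 31 and in 31.9% of all. These are matches of letters and describe no binding.

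ALDOC was at 11.8, 11.4, 13.4 and 14.3 CPM in HT55 DMSO and at 140, 192, 102 and 152 CPM in HT55 itraconazole. In SW948 it was at 9.30, 7.18, 11.1 and 8.24 CPM with DMSO and at 242, 303, 310 and 291 CPM with itraconazole. The lowest treated library of either line lay far above its highest control, and HT55 itraconazole replicate 3 was the lowest treated one. ALDOC rose 11.5-fold in HT55 (log2 3.52 ± 0.18, adjusted p = 1.77e-06, or 3.68 without itraconazole replicate 3) and 31.2-fold in SW948 (log2 4.96 ± 0.12, adjusted p = 6.57e-12, both edgeR). None of its 50-base transcript windows has an exact copy elsewhere in GRCh37.

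ALDOA, the aldolase gene of most tissues, was at 322, 315, 323 and 319 CPM in HT55 DMSO and at 571, 665, 414 and 525 CPM in HT55 itraconazole. The SW948 values were 518, 445, 525 and 497 CPM with DMSO and 888, 1211, 1385 and 1022 CPM with itraconazole. The groups did not overlap, and ALDOA rose 1.70-fold in HT55 (log2 0.76 ± 0.12, adjusted p = 0.000428, or 0.89 without itraconazole replicate 3) and 2.22-fold in SW948 (log2 1.15 ± 0.12, adjusted p = 5.58e-07, both edgeR). As a share of the length-scaled counts of the pair, ALDOC went from 5.51% ± 0.544 (SD, n = 4) to 28.2% ± 1.89 in HT55 and from 2.56% ± 0.315 to 27.4% ± 2.08 in SW948. These shares do not depend on the scaling of libraries.

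**Figure D3:**
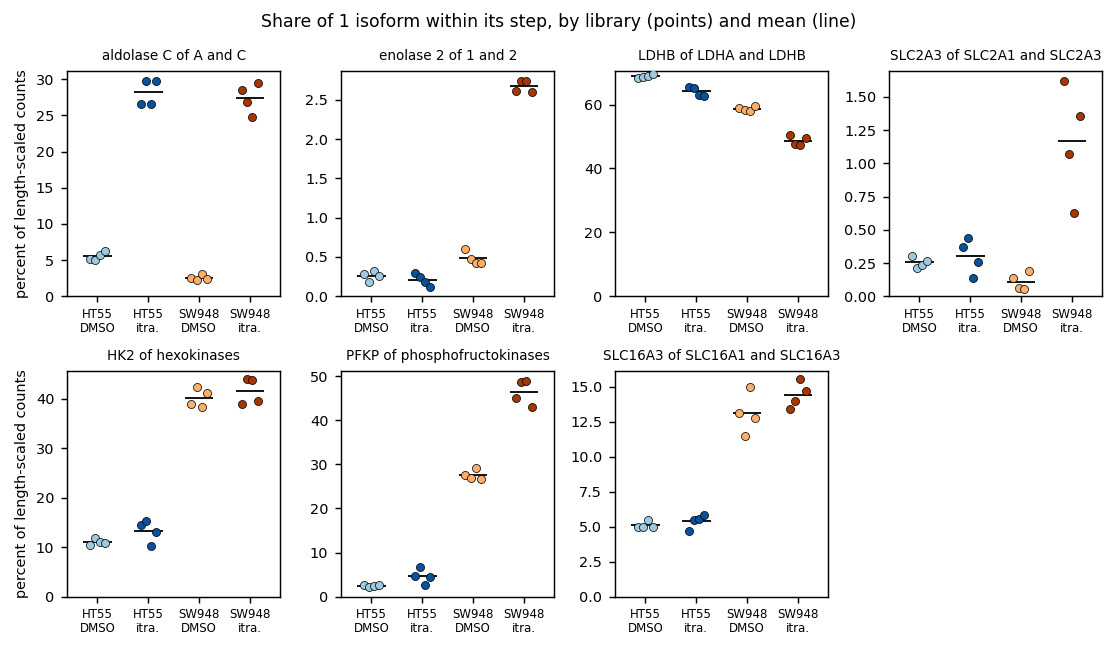
Share of 1 isoform gene in the length-scaled counts of its step, in percent, for each library (points) with the group mean (line), in 7 panels. The aldolase C share is 5.05% to 6.19% in HT55 DMSO and 26.5% to 29.8% in HT55 itraconazole, and the LDHB share is lower with itraconazole in both lines.

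Of the 8 triose phase genes below aldolase, PGK1, PGAM1 and PKM rose in HT55 and none fell. In SW948 TPI1, GAPDH, BPGM and ENO2 rose and ENO1 fell. TPI1, which interconverts the triose phosphates, rose in SW948 from 367 ± 21.5 to 521 ± 52.3 CPM (log2 0.47 ± 0.078, adjusted p = 6.71e-05, edgeR) and averaged 425 and 395 CPM in HT55 (log2 -0.11, adjusted p = 0.188). GAPDH, often used as a reference gene, rose in SW948 from 1349 ± 66.0 to 1814 ± 150 CPM (log2 0.40 ± 0.077, adjusted p = 0.000292, edgeR) and averaged 2885 and 2598 CPM in HT55 (log2 -0.16, adjusted p = 0.171). On plain totals the SW948 calls of both were lost (log2 0.14 and 0.061), and both were lower in HT55 (log2 -0.28 and -0.32, adjusted p = 0.00222 and 0.00375). GAPDH was also lower in HT55 without itraconazole replicate 2 (log2 -0.23, adjusted p = 0.0207). Exact copies elsewhere in the genome cover 38.6% of the windows of TPI1 and 25% of those of GAPDH.

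PGK1, a kinase gene of the payoff phase, rose in HT55 from 447 to 542 CPM (log2 0.27 ± 0.077, adjusted p = 0.0117, edgeR) and averaged 222 and 218 CPM in SW948 (adjusted p = 0.461), with plain totals removing the HT55 call (log2 0.10) and adding one for a lower level in SW948 (log2 -0.39). PGAM1, the phosphoglycerate mutase, rose in HT55 by 0.21 ± 0.081 on the log2 scale at an adjusted p of 0.0453 (edgeR), was not called in SW948 (log2 -0.07, adjusted p = 0.454), and has exact copies of 89.9% of its windows, so its counts come from a small part of the transcript. The HT55 call of PGAM1 was lost on plain totals (log2 0.049, adjusted p = 0.660), which gave a lower level in SW948 (log2 -0.40, adjusted p = 0.000864). It was also lost in 5 of 8 fits that left out 1 library (DMSO replicate 1, 2 or 4 or itraconazole replicate 2 or 4, adjusted p = 0.0567 to 0.106). BPGM, which makes the bisphosphoglycerate of red cells, rose in SW948 from 14.7 to 21.0 CPM (log2 0.48 ± 0.091, adjusted p = 0.000216, edgeR) and was at 7.48 and 6.64 CPM in HT55 (adjusted p = 0.336). On plain totals the SW948 call of BPGM was lost (log2 0.15).

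Enolase makes phosphoenolpyruvate. ENO1, its main isoform gene, fell in SW948 from 707 ± 30.7 to 576 ± 18.1 CPM (log2 -0.33 ± 0.061, adjusted p = 0.000202, edgeR) and averaged 613 and 551 CPM in HT55 (log2 -0.16, adjusted p = 0.0710), where it was called lower on plain totals (log2 -0.33) and without itraconazole replicate 2 (log2 -0.19, adjusted p = 0.0326). ENO2, the isoform of neurons and endocrine cells, was at 1.41, 0.925, 1.70 and 1.30 CPM in HT55 DMSO and at 1.42, 1.18, 0.761 and 0.497 CPM in HT55 itraconazole, from 4 to 16 counts each. In SW948, ENO2 was at 3.61, 2.55, 2.52 and 2.54 CPM with DMSO and at 13.1, 12.8, 13.3 and 12.6 CPM with itraconazole. The HT55 groups overlapped (log2 -0.47 ± 0.34, adjusted p = 0.270, or -0.34 and 0.433 without itraconazole replicate 3), whereas in SW948 every treated library lay above every control and ENO2 rose 4.49-fold (log2 2.17 ± 0.15, adjusted p = 9.07e-09, both edgeR). ENO2 nonetheless made up 0.481% of the length-scaled counts of ENO1 and ENO2 in SW948 DMSO and 2.67% in SW948 itraconazole. PKM, a pyruvate kinase gene, rose in HT55 from 891 ± 39.9 to 1219 ± 90.9 CPM (log2 0.45 ± 0.073, adjusted p = 0.000588, edgeR). In SW948 it averaged 800 and 895 CPM (log2 0.13, adjusted p = 0.191, edgeR). That SW948 value turned to -0.21 on plain totals and passed without SW948 DMSO replicate 3 (log2 0.20, adjusted p = 0.0427, edgeR).

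Lactate dehydrogenase subunits A and B form tetramers that interconvert pyruvate and lactate. LDHA rose in HT55 from 448 ± 4.30 to 605 ± 44.2 CPM (log2 0.43 ± 0.065, adjusted p = 0.000394) and in SW948 from 439 ± 13.5 to 854 ± 47.8 CPM (log2 0.93 ± 0.064, adjusted p = 1.19e-08, both edgeR), with no overlap in either line. LDHB rose in SW948 from 309 to 401 CPM (log2 0.35 ± 0.057, adjusted p = 6.81e-05, edgeR), which plain totals removed (log2 0.017), and averaged 490 and 536 CPM in HT55 (log2 0.13, adjusted p = 0.223), where plain totals turned the sign (log2 -0.05) and leaving out itraconazole replicate 3 gave a call (log2 0.20, adjusted p = 0.0168). The LDHB share of the length-scaled counts of the pair went from 68.8% ± 0.537 (SD, n = 4) to 64.1% ± 1.44 in HT55 and from 58.7% ± 0.682 to 48.7% ± 1.57 in SW948, and the treated and control shares did not overlap in either line. Copies elsewhere cover 14.8% of the windows of LDHA and 3.95% of those of LDHB.

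SLC16A1, the monocarboxylate transporter MCT1, fell in SW948 from 226 ± 9.10 to 183 ± 8.89 CPM (log2 -0.34 ± 0.061, adjusted p = 0.000156, edgeR). In HT55 its DMSO libraries held 398 to 432 CPM and its treated libraries 318 to 521 CPM, spread on both sides (log2 -0.02, adjusted p = 0.918). SLC16A3, the lactate exporter MCT4, was called in neither line on the TMM scale, with a log2 fold change of 0.07 ± 0.17 in HT55 (adjusted p = 0.734) and -0.17 ± 0.080 in SW948 (adjusted p = 0.0598, both edgeR). The SW948 value passed on plain totals (log2 -0.50, adjusted p = 9.19e-05), where the HT55 value turned to -0.08, and without SW948 DMSO replicate 2 or itraconazole replicate 3 (adjusted p = 0.0217 and 0.0327).

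The pyruvate dehydrogenase kinases went different ways. PDK1, a kinase known as a hypoxia target, was at 18.5, 25.5, 18.2 and 22.9 CPM in HT55 DMSO and at 10.7, 12, 11.1 and 12.4 CPM in HT55 itraconazole. In SW948 it was at 58.0, 54.0, 49.7 and 55.8 CPM with DMSO and at 20.1, 23.7, 20.8 and 21.6 CPM with itraconazole. Every treated library lay below every control of its line, and PDK1 fell by 0.88 on the log2 scale in HT55 (SE 0.13, adjusted p = 0.000342, or 0.85 without itraconazole replicate 3) and by 1.37 in SW948 (SE 0.083, adjusted p = 3.33e-09, both edgeR).

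PDK4, the kinase induced in fasting and by fatty acids, was at 12.1, 10.6, 10.3 and 13.6 CPM in HT55 DMSO and at 37, 53.9, 38.4 and 53.9 CPM in HT55 itraconazole. In SW948 it was at 9.54, 10.5, 10.4 and 10 CPM with DMSO and at 43.0, 45.6, 45.6 and 43.8 CPM with itraconazole. Controls and treated libraries formed separate ranges in both lines at nearly the same levels, and PDK4 rose 3.92-fold in HT55 (log2 1.97 ± 0.16, adjusted p = 9.58e-06, or 2.06 without itraconazole replicate 3) and 4.30-fold in SW948 (log2 2.11 ± 0.082, adjusted p = 7.56e-11, both edgeR). Per kilobase of exon, PDK4 went from 2.56 to 10.1 CPM in HT55 and from 2.23 to 9.80 in SW948, while PDK1 went from 1.43 to 0.779 and from 3.66 to 1.45.

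PDK2, a widely expressed kinase gene, fell in SW948 from 25.8 ± 2.89 to 14.3 ± 3.94 CPM (log2 -0.87 ± 0.16, adjusted p = 0.000156, edgeR) and averaged 39.0 and 46.1 CPM in HT55 (log2 0.24, adjusted p = 0.113, or 0.32 and 0.0218 without itraconazole replicate 3), but 38.6% of its exonic bases are shared with SAMD14. PDK3 rose in HT55 from 60.5 to 75.8 CPM (log2 0.32 ± 0.070, adjusted p = 0.00319, edgeR), lost on plain totals (log2 0.15), and was at 7.88 and 8.87 CPM in SW948 (adjusted p = 0.375), with a sign change to -0.18 on plain totals.

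PDHB encodes the beta subunit of the E1 enzyme of the complex. It was at 68.1, 68.5, 70.1 and 71.9 CPM in HT55 DMSO and at 66.3, 62.0, 81.6 and 76.1 CPM in HT55 itraconazole. In SW948 it was at 74.4, 71.2, 71.0 and 74.2 CPM with DMSO and at 40.2, 29.1, 27.6 and 30.1 CPM with itraconazole. The HT55 groups overlapped (log2 0.04 ± 0.088, adjusted p = 0.752, edgeR), with a sign change to -0.12 on plain totals and to -0.02 without HT55 itraconazole replicate 3. In SW948 all treated libraries lay below the controls and PDHB fell by 1.22 on the log2 scale (SE 0.10, adjusted p = 6.83e-08, edgeR). PDHA1, the alpha subunit gene, fell in HT55 from 142 ± 5.46 to 121 ± 3.52 CPM (log2 -0.23 ± 0.057, adjusted p = 0.00553, edgeR) and averaged 74.3 and 74.2 CPM in SW948 (adjusted p = 0.693), where plain totals gave a fall (log2 -0.36, adjusted p = 0.00261). MAP3K15 shares 19.3% of its exonic bases.

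**Figure D4:**
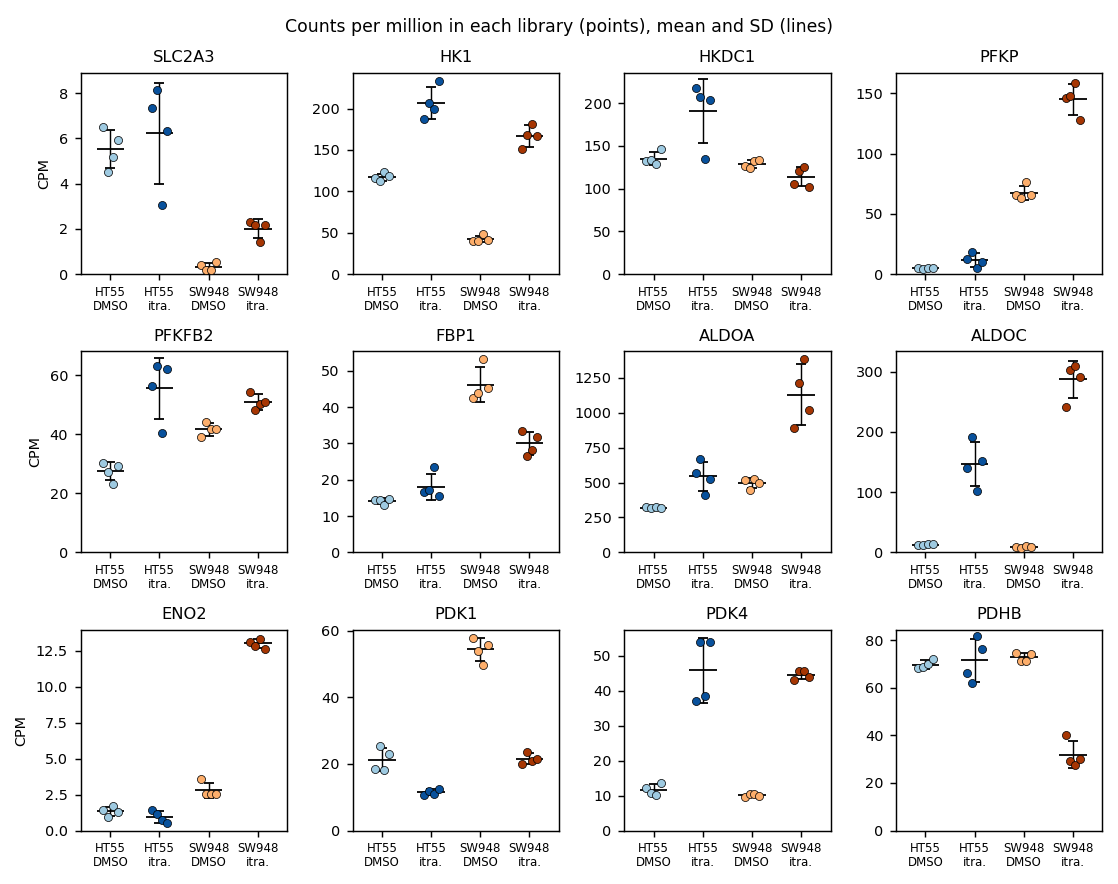
CPM in each library (points) for the 12 genes that changed by at least 1 on the log2 scale in a line or went opposite ways, with the group mean and SD (lines) and each vertical axis starting at 0. ALDOC and PDK4 separate treated from control libraries in both lines, ENO2 and PDHB in SW948, and in HT55 itraconazole the PFKP and HKDC1 values include 1 point among the controls.

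The other genes around pyruvate dehydrogenase, from a list of 8 that covers the remaining subunits, the phosphatases and the mitochondrial pyruvate carriers, were all tested. In HT55 4 changed (3 higher, 1 lower) and in SW948 6 changed (5 higher, 1 lower), with a median log2 fold change of 0.088 and 0.60, where 54.0% and 80.2% of all genes changed. PDP1 and PDP2 encode the phosphatases that undo the action of the kinases. PDP1 rose from 39.1 ± 1.13 to 91.8 ± 21.3 CPM in HT55 (log2 1.23 ± 0.15) and from 79.9 ± 3.63 to 331 ± 29.9 CPM in SW948 (log2 2.02 ± 0.076), and PDP2 by 1.03 ± 0.14 and 1.18 ± 0.11 on the log2 scale. PDPR, their regulatory partner, rose by 0.90 ± 0.11 and 1.02 ± 0.10. DLD, the E3 subunit gene, fell by 0.37 on the log2 scale in HT55 and by 1.15 in SW948 (adjusted p = 0.00163 and 1.52e-07, edgeR).

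Gluconeogenesis runs the route in reverse. Of 20 further glycolysis and gluconeogenesis enzymes, 10 were tested in HT55, of which 4 rose and 2 fell, and 11 in SW948, of which 4 rose and 3 fell, with medians of 0.18 and -0.10 on the log2 scale, beside 54.0% and 80.2% of all genes changed. PCK1, the cytosolic phosphoenolpyruvate carboxykinase, rose from 70.0 ± 5.74 to 650 ± 243 CPM in HT55 (log2 3.21 ± 0.24, adjusted p = 7.14e-06) and from 16.8 ± 2.42 to 318 ± 154 CPM in SW948 (log2 4.21 ± 0.29, adjusted p = 1.05e-08, both edgeR). PCK2, its mitochondrial counterpart, fell by 1.04 and 1.95 on the log2 scale (adjusted p = 0.000170 and 5.64e-11). PC, pyruvate carboxylase, rose in HT55 by 1.43 ± 0.22 (adjusted p = 0.000458) and was not called in SW948 (0.20 ± 0.17, adjusted p = 0.287). G6PC3, a glucose phosphatase gene, fell by 0.48 and 1.88, and PGM2L1, a phosphoglucomutase relative, rose by 1.48 ± 0.19 and 2.08 ± 0.087. PKLR, the liver pyruvate kinase, was called higher in HT55 by 1.11 ± 0.41 (adjusted p = 0.0394, edgeR) and was below the count filter in SW948. Its HT55 DMSO libraries held 25 to 32 counts each and its HT55 itraconazole libraries 24 to 93. The lowest treated count thus lay below every control count. No value without HT55 itraconazole replicate 3 is given for PKLR or for the other genes outside the set.

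Of 12 further glucose and lactate transport genes, 5 were tested in HT55, of which 3 rose and none fell, and 7 in SW948, of which 4 rose and 1 fell (medians 0.34 and 0.27, with 54.0% and 80.2% of all genes changed). SLC16A4, an orphan relative of the monocarboxylate transporters, rose from 5.63 ± 0.515 to 37.2 ± 15.9 CPM in HT55 (log2 2.71 ± 0.32, adjusted p = 8.32e-05) and from 17 ± 3.02 to 60.1 ± 5.14 CPM in SW948 (log2 1.78 ± 0.11, adjusted p = 5.62e-09, both edgeR). SLC2A12, a facilitative glucose transporter gene, rose by 1.21 ± 0.21 in HT55 and 1.60 ± 0.15 in SW948. SLC2A10 fell by 1.02 in SW948 from 2.45 to 1.20 CPM (adjusted p = 0.00728) and held at most 1 count per HT55 library.

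The second comparison asked whether the response differed between the lines, as the response in SW948 minus that in HT55. It differed for 20 of the 34 genes (58.8%), with a higher value in SW948 for 11 and a lower one for 9, where 53.9% of 13249 genes differed, 24.8% higher and 29.1% lower. Plain totals gave 24 genes, 9 higher and 15 lower, with no share of all genes given on that scale. With them the median of all genes went from -0.04 to -0.23 and that of the set from -0.11 to -0.3. The response was higher in SW948 by at least 1 on the log2 scale for ENO2 (2.67 ± 0.35 on the log2 scale, adjusted p = 4.21e-06), SLC2A3 (2.39 ± 0.50, 0.000486), ALDOC (1.47 ± 0.23, 3.30e-05) and HK1 (1.16 ± 0.11, 1.26e-07, all edgeR). It was lower in SW948 by the most for PDHB (-1.23 ± 0.14, 9.02e-07), PDK2 (-1.08 ± 0.21, 0.000279) and FBP1 (-1.0 ± 0.17, 7.21e-05).

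For PDK4 the difference was 0.16 on the log2 scale, with an approximate 95% interval from -0.19 to 0.51 (adjusted p = 0.457), and for PFKP -0.08, from -0.72 to 0.55 (0.846). For PFKM it was -0.0001, from -0.32 to 0.31 (adjusted p near 1, all edgeR). These intervals use a normal quantile and so run somewhat narrower than the test itself would give. The data for these genes leave room for a difference of those sizes or somewhat larger. Of the 18 genes called in 1 line alone, the difference itself passed the test for 12, namely SLC2A1, SLC2A3, PFKL, TPI1, GAPDH, BPGM, ENO2, LDHB, PDK2 and PDHB among those called in SW948 and PGK1 and PDHA1 among those called in HT55. It did not pass for ENO1, SLC16A1, PFKFB3, PGAM1, PKM and PDK3, where the log2 difference ran from -0.29 to -0.06. On plain totals it passed for all of these but PDK3, at -0.33 for ENO1, -0.49 for SLC16A1, -0.25 for PFKFB3, -0.45 for PGAM1 and -0.49 for PKM (adjusted p = 0.00123 to 0.0363). Without a filter on low counts it passed for PKM and SLC16A1 (adjusted p = 0.0408 and 0.0431). Leaving out 1 library let it pass in 5 of 16 fits for PKM (adjusted p = 0.0173 to 0.0478, without HT55 DMSO replicate 3, HT55 itraconazole replicate 1, SW948 DMSO replicate 2 or 4 or SW948 itraconazole replicate 3), in 3 for PGAM1 (adjusted p = 0.0290 to 0.0492, without HT55 itraconazole replicate 1, SW948 DMSO replicate 1 or SW948 itraconazole replicate 3) and in 2 for SLC16A1 (adjusted p = 0.0478 and 0.0118, without HT55 itraconazole replicate 1 or 2). The differences of LDHB (0.25, adjusted p = 0.0448) and PDHA1 (0.23, adjusted p = 0.0452) were near the threshold and were lost on plain totals (log2 0.062 and 0.042). They were also lost in 13 and 14 of the 16 fits that left out 1 library. That of PGK1 (-0.31, adjusted p = 0.0297) was lost in 5 of them, without HT55 DMSO replicate 3, HT55 itraconazole replicate 2, SW948 DMSO replicate 3 or SW948 itraconazole replicate 2 or 3 (adjusted p = 0.0514 to 0.0638). The HK2 difference of -0.36 (adjusted p = 0.190) passed without HT55 itraconazole replicate 3 (-0.56, adjusted p = 0.00326). It also passed on plain totals (-0.55, adjusted p = 0.0244) and without a filter on low counts (-0.37, adjusted p = 0.0175). That of ALDOA (0.42, adjusted p = 0.0564) passed with DESeq2 size factors, the DESeq2 Wald test, no filter on low counts or at least 10 counts in every library (adjusted p = 0.00259 to 0.0462).

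The third comparison set the lines side by side without drug, and its SW948 and HT55 DMSO libraries are the controls of the responses above. Between them 27 of the 34 genes differed (79.4%), 11 higher and 16 lower in SW948, where 75.9% of 13249 genes differed, 38.2% higher and 37.7% lower. The DMSO ranges did not overlap for 26 of the 34 (78.0% of all genes). Plain totals gave 13 higher and 11 lower, again with no share of all genes on that scale. With them the median of all genes went from 0.01 to 0.20 and that of the set from -0.18 to 0.02.

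A difference of at least 1 on the log2 scale was found for 12 of the 34 genes. The share of all genes past that size is not given for this comparison. The median absolute log2 difference was 0.65 both for the set and for all genes. SW948 DMSO was lower than HT55 DMSO in SLC2A3 (log2 -3.99 ± 0.36), PDK3 (-2.94 ± 0.10), SLC2A1 (-2.86 ± 0.12), HK1 (-1.47 ± 0.082), GAPDH (-1.10 ± 0.088) and PGK1 (-1.01 ± 0.082). It was higher in PFKP (3.75 ± 0.24), HK2 (2.01 ± 0.17), FBP1 (1.72 ± 0.12), PDK1 (1.35 ± 0.10), ENO2 (1.07 ± 0.24) and PFKFB4 (1.03 ± 0.20). Adjusted p of these 12 ran from 2.64e-15 for PDK3 to 0.000426 for ENO2 (edgeR). PDK4, LDHA, PDHB, PFKL, PFKFB3, PKM and HKDC1 were not called different between the DMSO lines, with log2 differences from -0.20 to 0.06. On plain totals LDHA (0.17, adjusted p = 0.00460) and PFKL (0.20, adjusted p = 0.0440) were called, and PKM was called without SW948 DMSO replicate 3 (-0.24, adjusted p = 0.0178). Of SLC16A1 and SLC16A3, SLC16A3 supplied 5.11% ± 0.249 (SD, n = 4) of the length-scaled counts in HT55 DMSO and 13.1% ± 1.43 in SW948 DMSO, and 5.39% ± 0.483 and 14.4% ± 0.963 with itraconazole.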

How the data were processed

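RNA was sequenced from 16 libraries of HT55 and SW948 cells, 4 in each of 4 groups, grouped by the line and treatment of the labels. The authors made TruSeq libraries, and their processing notes name TopHat, HTSeq, DESeq and hg19, without roles. Versions, the annotation release and the strand setting are not given in the sources used here. The deposited values are raw read counts per Ensembl gene. The 5 closing totals of reads outside genes were left out of library sizes. Reads with more than 1 alignment (22% to 27.9% of all entries tallied) are in no gene, so genes with copies lose reads. Without strand, overlapping genes cannot be told apart.

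Symbols, coordinates and exon lengths came from GENCODE mapped to GRCh37. The 34 genes, the 8 companion lists and the 12 genes given by library were chosen with earlier results of these data known. Genes with every library shown had an absolute log2 fold change of at least 1 in a line at an adjusted p under 0.05, or changed in opposite directions. Companion genes were named by the same fold rule.

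Tests used edgeR 4.0.16 (R 4.3.3, limma 3.58.1), quasi-likelihood, with TMM and filterByExpr, on the 8 libraries of each line, or on all 16 for the line by treatment interaction and the DMSO lines. The standard error is the log2 fold change over the square root of F. CPM used the TMM sizes of the 16-library fit. Checked on simulated data, the tests recovered 83.7% (HT55, 12133 genes), 95.9% (SW948, 12505 genes) and 67.7% (interaction, 13249 genes) of genes changed by 1 on the log2 scale. For a change of 0.6 they recovered 56.1%, 69.1% and 30.9%. In each case 100 genes were changed, and the percentages are of those that passed the filter. The simulation changed as many genes up as down, and far fewer than were called in the data. Its percentages may therefore not hold for the tests above, and it does not check the scaling of libraries. Alternatives were DESeq2 1.42.0 (size factors, Wald test), plain totals, TMM without the 34 genes, other filters and thresholds, 1 fit on all libraries, a replicate block and leaving out each library. Canonical transcript lengths were added after seeing the data. All 34 genes passed the filter in both lines, so no separate test of genes below it was needed. Counts carry no molecular identifiers. The errors given cover these libraries only.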

Additional observations from a re-analysis of the deposited data

Results flagged for a closer look

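In 8 of 168 groups of 4 libraries (CPM of a gene, or an isoform share), the highest or lowest library lay far from the other 3 by Dixon's ratio of gap to range, and 1 in 20 groups, here 8.40, would do so by chance. HK1 in SW948 DMSO replicate 3 was 48.1 CPM against 39.7 to 41.1 (ratio 0.833). HKDC1 in HT55 itraconazole replicate 3 was 135 against 204 to 218 (0.830). PFKL in SW948 itraconazole replicate 2 was 52.2 against 63.4 to 63.7 (0.978). ENO1 in SW948 DMSO replicate 2 was 661 against 719 to 728 (0.869), and ENO2 in SW948 DMSO replicate 1 was 3.61 against 2.52 to 2.55 (0.966). PKM was 1084 against 1256 to 1278 in HT55 itraconazole replicate 1 (0.886) and 932 against 750 to 765 in SW948 DMSO replicate 3 (0.915). The SLC16A3 share in HT55 DMSO replicate 3 was 5.48% against 4.95% to 5.01% (0.886).

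The response to itraconazole differed between the lines for 20 genes by the interaction test (edgeR, adjusted p under 0.05). On the log2 scale, as SW948 minus HT55, the difference was 2.67 for ENO2, 2.39 for SLC2A3, 1.47 for ALDOC, 1.16 for HK1, 0.69 for BPGM, 0.61 for TPI1, 0.58 for GAPDH, 0.53 for LDHA, 0.42 for GPI, 0.25 for LDHB and 0.23 for PDHA1. It was -0.31 for PGK1, -0.46 for PDK1, -0.68 for HKDC1, -0.70 for SLC2A1, -0.71 for PFKL, -0.72 for PFKFB2, -1.0 for FBP1, -1.08 for PDK2 and -1.23 for PDHB.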

How the results depend on the processing

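With a minimum absolute log2 fold change of 1, 4 genes changed in HT55, 9 in SW948, 6 in the interaction and 12 between the DMSO lines. At that size 9.63% of all genes changed in HT55 and 32.0% in SW948. No such share is given for the interaction or the DMSO lines. The counts under the other settings were within 1.5 times the main ones, and leaving out single libraries gave 18 to 22, 26 to 28, 18 to 22 and 24 to 28. Without mitochondrially encoded genes the 34 genes held 1.07% of counts in HT55 itraconazole and 0.838% in SW948 itraconazole.

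Plain library totals turned the sign for SLC2A3 (-0.025), LDHB (-0.045), SLC16A3 (-0.081) and PDHB (-0.12) in HT55, for PFKFB2 (-0.067), PFKFB3 (-0.21), PKM (-0.21) and PDK3 (-0.18) in SW948, for HKDC1 (0.13), PFKFB3 (0.11), PKM (0.042) and LDHA (0.17) between the DMSO lines, and for PDK4 (-0.026) in the interaction. The PFKM interaction, near 0, was 0.025 with DESeq2 size factors and the Wald test, 0.0001 with TMM without the 34 genes, 0.0075 with at least 10 counts and 0.018 with the replicate block. PDHA1 in SW948 was 0.0002 in 1 fit on all libraries. Leaving out single libraries turned the sign, within -0.11 to 0.022, for SLC2A1, -0.014 to 0.41 for SLC2A3, -0.16 to 0.0081 for PFKL, -0.14 to 0.088 for SLC16A1, -0.078 to 0.20 for SLC16A3 and -0.024 to 0.10 for PDHB in HT55, -0.080 to 0.013 for PDHA1 in SW948, -0.045 to 0.048 for PFKL between the DMSO lines, and in the interaction -0.12 to 0.085 for PFKM, -0.38 to 0.26 for PFKP, -0.11 to 0.0032 for PFKFB3 and -0.32 to 0.023 for PFKFB4. The cause was not tested.

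Same-numbered libraries correlated at -0.0333 to 0.153 in HT55 and 0.00418 to 0.166 in SW948, after group means were removed. For replicate 3 this passed the highest value with another number, 0.153 against 0.0123 in HT55 and 0.166 against 0.024 in SW948. It also did for SW948 replicate 4 (0.0755 against 0.0132), and for no other number. Whether equal numbers mark a shared origin was not tested. The block gave 18, 28, 20 and 26 genes and changed the calls of PFKFB3 (adjusted p = 0.0760), FBP1 (0.0755) and PGAM1 (0.0536) in HT55, SLC16A3 in SW948 (0.0443), ALDOA (0.0476), PKM (0.0339), LDHB (0.0662) and PDHA1 (0.0589) in the interaction and PGM1 between the DMSO lines (0.0504). Length scaling moved isoform shares, the aldolase C share with canonical lengths being 3.90% and 21.4% in HT55 and 1.80% and 20.8% in SW948. At these depths genes with under about 10 counts per library, as SLC2A3 and ENO2 in some groups, gave wide intervals.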

Other observations

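The neighbouring pathways moved as follows. Of 8 pentose phosphate genes, 5 changed in HT55 (3 higher, 2 lower) and 7 in SW948 (5 higher, 2 lower), with median log2 fold changes of 0.17 and 0.24, beside 54.0% of all genes changed in HT55 and 80.2% in SW948. TKT, the transketolase that returns pentose phosphates to glycolysis, went up in HT55 from 348 ± 11.6 to 955 ± 312 CPM (SD, n = 4; log2 1.45 ± 0.20 SE, adjusted p = 0.000238) and from 201 ± 14.3 to 2577 ± 536 CPM in SW948 (log2 3.65 ± 0.14, adjusted p = 5.99e-11, both edgeR). H6PD, the hexose phosphate dehydrogenase of the endoplasmic reticulum, fell in SW948 by 1.70 on the log2 scale (adjusted p = 3.23e-07) and was not called in HT55 (0.27, adjusted p = 0.0643). RPE, the ribulose phosphate epimerase, fell by 0.19 in HT55 (adjusted p = 0.0382) and by 1.36 in SW948 (adjusted p = 1.03e-09, edgeR).

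Of 16 citric acid cycle genes, 10 changed in HT55, all of them higher, and 12 changed in SW948 (9 higher, 3 lower), with medians of 0.27 and 0.19 and no gene past 1 on the log2 scale, where 54.0% and 80.2% of all genes changed. Of 7 measured regulators of glycolytic genes, 5 changed in HT55 (4 higher, 1 lower) and 4 in SW948 (all higher), with medians of 0.35 and 0.80, beside the same 54.0% and 80.2% of all genes. EPAS1, which encodes a hypoxia-inducible factor subunit, rose from 109 ± 6.28 to 315 ± 44.2 CPM in HT55 (log2 1.53 ± 0.10, adjusted p = 3.35e-06) and from 189 ± 10.4 to 353 ± 30.2 CPM in SW948 (log2 0.87 ± 0.073, adjusted p = 7.59e-08, both edgeR).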
